A study of Homo sapiens with 82 samples.

Results

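The 500 widest H3K27ac domains of vehicle-treated HT29 cells were described here, out of 19892 H3K27ac sites in those cells (2.51% of them). Peaks of the 2 DMSO replicates that overlapped by at least 1 bp were merged into sites, and the domains were selected on width in DMSO as the 500 widest sites, with ties broken by chromosome and start. Those widths, and every comparison of H3K27ac between a drug and DMSO, are given below as a description without a test. Measures that the choice did not use are the peaks of RNA polymerase II (RNAP2), of the nuclear receptors and of JunD, and H3K27ac compared between the 2 drugs or between times. The fits for those H3K27ac comparisons also held the 2 DMSO libraries, which share in the estimate of the spread.

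Acetylation of lysine 27 of histone H3 marks active promoters and enhancers. Where several active elements lie close together the mark can run on for many kilobases, and such broad domains are known to gather around genes that define a cell type. LXRA and LXRB are receptors for oxysterols, and PPARG is a receptor for fatty acids and their derivatives. All of them bind DNA with RXR as a partner and exchange corepressors for coactivators when a ligand binds. JunD is a subunit of AP1, a dimeric factor that occupies many enhancers of epithelial cells, and RNAP2 is the enzyme that transcribes protein-coding genes and is also found at active enhancers.

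HT29 is a human colorectal adenocarcinoma line, here grown in medium with charcoal-stripped serum. H3K27ac and RNAP2 were profiled by ChIP-seq in cells given the carrier DMSO and after 24 or 48 h of 10 μM GW3965, a synthetic LXR agonist, or 10 μM rosiglitazone, a PPARG agonist. LXRB and LXRA were profiled after 2 and 48 h of GW3965, PPARG after 2 and 48 h of rosiglitazone, and JunD in DMSO. Every group had 2 libraries, so each mean below stands beside the values of both. The DMSO libraries of ChIP-seq carry no hour in the labels. LXRA was pulled down through a Flag tag in cells that carried an LXRA transgene under drug selection, so its peaks are those of the tagged protein and not of the endogenous one. No vehicle library of a receptor was analysed, and receptor peaks of ligand-treated cells are therefore compared only between times and between sets of sites. Nothing in the labels says that the 2 replicates came from separate cultures, so p-values measure the spread between these libraries, which may be technical.

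Markers of the labelled cell type were read as CPM (counts scaled to a common library total) in the 4 RNA-seq libraries of the 24 h DMSO group. All 10 epithelial markers were present, with medians from 3.48 CPM for CDX1 and 15.5 CPM for CDX2, transcription factors of the intestine, to 339.7 CPM for EPCAM and 9683 CPM for KRT8, a keratin of simple epithelia. Of the markers of other cells, PTPRC of leukocytes ranged from 0 to 0.025 CPM, ALB of hepatocytes was at 0 in all 4 libraries, VIM reached 0.151 CPM and COL1A1 ranged from 3.20 to 5.16 CPM. PECAM1 of endothelium was not analysed here, because its symbol matched no gene.

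The domains ranged from 7325 to 54087 bp and had a median of 9062 bp, against 2453 bp for all other sites. At the lower limit the 5 narrowest domains measured 7325 to 7350 bp and the 5 widest sites left out 7298 to 7318 bp, so the limit falls within a continuous distribution. There were 184 domains over 10 kb and 13 over 20 kb, and 125 were under 8 kb. Together they held 5.11 Mb, or 8.85% of the length of all sites. The plot of width against rank shows no step at rank 500.

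**Figure D1:**
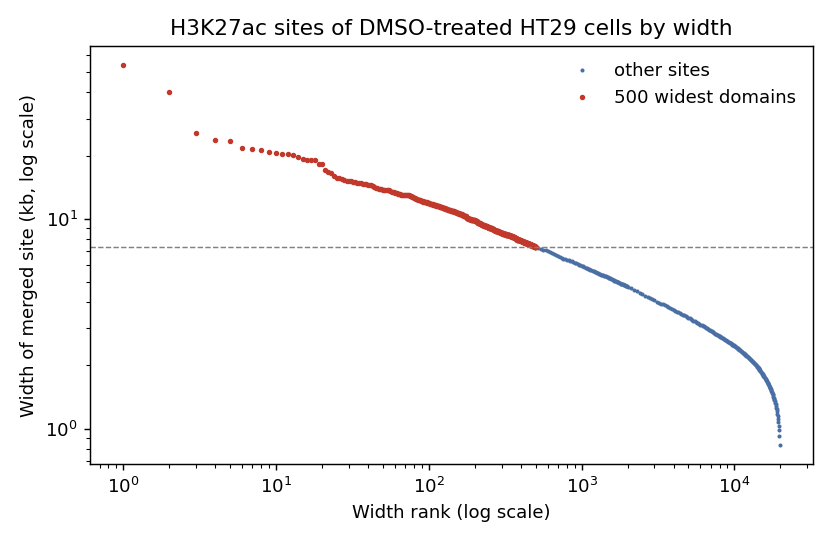
Width in kb (log scale) of H3K27ac sites of DMSO-treated cells against width rank (log scale), with the 500 widest domains in red, a sample of the other sites in blue and a dashed line at the narrowest domain. The domains run from 54087 down to 7325 bp without a gap to the sites outside.

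The 2 widest domains lay next to each other on chromosome 17 (hg19, chr17:46631595-46685681 and chr17:46685688-46725799), 54087 and 40112 bp wide and separated by 6 bp. Of the other 8 of the 10 widest, 3 lay on chromosome 8. The remaining 5 were chr11:61721519-61745384 with 23866 bp, chr7:27210633-27234011 with 23379 bp, chr1:16464616-16486385 with 21770 bp, chr19:39137669-39159206 with 21538 bp and chr20:56265630-56286933 with 21304 bp. Genes and promoters within the domains were not analysed here, because no annotation of hg19, the build of these peaks, was used.

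Chromosomes contributed unevenly. Chromosome 11 held 60 domains, chromosome 1 held 57, chromosome 8 held 42, chromosome 17 held 41 and chromosome 20 held 30. On chromosome 8 the domains were 6.94% of its 605 sites, on chromosome 11 they were 5.09% and on chromosome 20 they were 4.94%. Chromosome 4 with 0.734% and the X chromosome with 0.821% had the lowest shares. The domains also lay close to each other: 162 of 500 (32.4%) had another domain within 50 kb, whereas 77 of the next 500 sites by width (15.4%) had another of the next 500 within that distance. For 291 domains (58.2%) some other H3K27ac site lay within 5 kb.

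How continuous a domain appeared depended on the library. In DMSO, peaks covered 85.1% of the domains' length in replicate 1 and 99.0% in replicate 2. The covered share was 91.9% and 92.2% after 24 h of GW3965, 94.2% and 90.1% after 48 h, 92.4% and 93.3% after 24 h of rosiglitazone and 94.5% and 86.6% after 48 h. All 8 drug libraries thus lay between the 2 DMSO libraries. Expressed per group, coverage was 92.1% ± 9.83 (SD, n = 2) in DMSO, 92.1% ± 0.245 and 92.1% ± 2.94 with GW3965 at 24 and 48 h, and 92.8% ± 0.678 and 90.5% ± 5.60 with rosiglitazone.

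The breakup of domains into separate peaks also varied between replicates. The number of H3K27ac peaks per domain was 1.78 and 1.14 in the DMSO replicates. It was 1.57 and 1.10 after 24 h and 1.44 and 1.39 after 48 h of GW3965, and 1.31 and 1.19 after 24 h and 1.24 and 1.80 after 48 h of rosiglitazone. Only rosiglitazone 48 h replicate 2 and GW3965 24 h replicate 2 fell outside the DMSO range. In DMSO replicate 1, 214 domains were a single peak and 83 were in 3 or more peaks, while in DMSO replicate 2, 444 were a single peak and 12 were in 3 or more. Rosiglitazone 48 h replicate 2 resembled DMSO replicate 1, with 224 domains in 1 peak and 94 in 3 or more. Across all 10 libraries 84 domains were always 1 peak, and 8 were never 1 peak.

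The 2 most broken libraries also covered the least of the genome. DMSO replicate 1 had 23015 peaks over 49.4 Mb of the genome and rosiglitazone 48 h replicate 2 had 28164 over 56.2 Mb, the 2 smallest covered lengths of the 10 libraries, while the other 8 covered 62.1 to 75.5 Mb. The total number of peaks did not follow the breakup, with the lowest of the 10 totals in DMSO replicate 1 but a total in rosiglitazone 48 h replicate 2 above that of DMSO replicate 2 (27701). The part of library quality or depth in the breakup was not tested, since the peak files hold no read totals. Peaks closer than 500 bp, when joined, left 1.03 to 1.11 peaks per domain in the 5 groups, so most breaks were shorter than that.

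**Figure D2:**
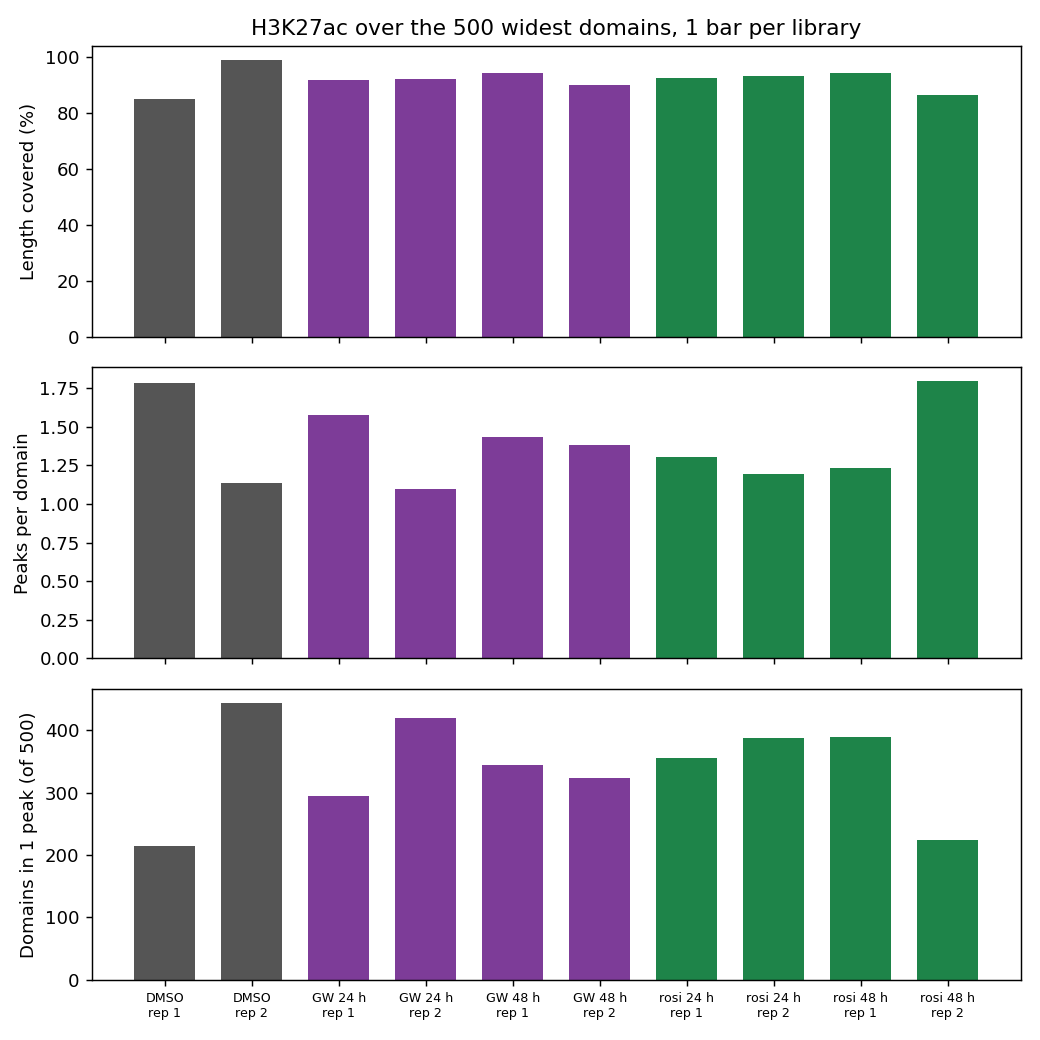
Bar panels with 1 bar per H3K27ac library (grey DMSO, purple GW3965, green rosiglitazone) show the covered length of the 500 widest domains in percent, the mean number of peaks per domain and the number of domains in a single peak. The 2 grey bars, at 85.1% and 99.0% covered and 214 and 444 domains in 1 peak, are farther apart than the 2 bars of any drug group in the upper panel.

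The domains that were hardest to find again were few. All 500 have a peak in both DMSO libraries by the rule, and 469 had one in all 10 libraries. Of the 31 domains without a peak in at least 1 drug library, 17 lay on chromosome 8, which held 42 of the 500. Per library 0 to 18 domains had no peak, against 702 to 2809 (3.62% to 14.5%) of the 19392 other sites. Only 5 domains had no peak in both libraries of a drug group. With the chromosome 8 domains left out, an alternative chosen after seeing the data, coverage was 93.6% after 24 h of GW3965 and 94.1% after 24 h of rosiglitazone, and 92.4% in DMSO.

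Merged in the same way as DMSO, the drug groups kept most domains in 1 piece. A single merged site touched 449 domains after 24 h and 425 after 48 h of GW3965, and 431 after 24 h and 412 after 48 h of rosiglitazone. The widest site touching a domain had a median of 9635.5 and 9213 bp with GW3965 and 9397 and 9163.5 bp with rosiglitazone, against 9062 bp in DMSO. It was wider than the DMSO domain in 333, 276, 268 and 250 of 500 cases. In the other direction, 342 and 355 of the 500 widest sites of GW3965 at 24 and 48 h touched a DMSO domain (68.4% and 71.0%), as did 317 and 325 of those of rosiglitazone (63.4% and 65.0%).

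The result depended on which group supplied the domains. Chosen instead as the 500 widest sites of a drug group, the domains were covered in the DMSO libraries to 76.3% and 88.0% (GW3965 24 h), 78.5% and 90.8% (GW3965 48 h), 74.7% and 85.1% (rosiglitazone 24 h) and 74.8% and 85.0% (rosiglitazone 48 h). In their own libraries they were covered to 85.2% and 97.1%, 95.6% and 91.6%, 94.2% and 97.8%, and 99.8% and 86.3%. Each drug list was better covered in its own group than in DMSO, as a mean of 2 libraries, whereas the DMSO list was covered about equally in all 5 groups. No change of width with a drug is read from any of these lists.

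The fitted changes against DMSO, given as a description, were small. limma, fitted over all 19892 sites on log2(covered bp + 100), gave the domains a median log2 change of 0.019 after 24 h and 0.019 after 48 h of GW3965, and of 0.028 after 24 h and −0.0049 after 48 h of rosiglitazone. Medians over all sites were −0.010, 0.0010, 0.027 and −0.032. No calls are counted here, because the DMSO values chose the domains.

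Comparing the drugs with each other tests a difference the choice of domains did not use. The 2 DMSO libraries that chose the domains were in the same fit, however, and share in its estimate of the spread. At 24 h, 2 of 500 domains differed in H3K27ac length between GW3965 and rosiglitazone (0.400%, against 1.49% of all 19892 sites), and at 48 h again 2 (1.39% of all sites). Between 48 and 24 h, 0 domains were called with GW3965, where 2 had an unadjusted p under 0.05 in limma (0.462% of all sites called), and 1 with rosiglitazone (0.945% of all sites). The share of domains called was below that of all sites in each of these comparisons. With only the 4 libraries compared, and so without DMSO, 9 and 3 domains differed between the drugs at 24 and 48 h. Of all sites 651 and 556 did. Between times such fits called 0 domains with either drug, and 0 and 375 of all sites with GW3965 and rosiglitazone. Per drug library 3.62% to 14.5% of the other sites had no peak, against 0 to 18 domains. A step to or from 0 bp is large on the log2 scale. The part of this in the lower shares was not tested. The counts moved with single libraries: without GW3965 24 h replicate 1 there were 13 domains between the drugs at 24 h and 11 between the times of GW3965, without GW3965 48 h replicate 1 there were 9 between the drugs at 48 h and 7 between the times of GW3965, and without rosiglitazone 48 h replicate 1 there were 11 between the drugs at 48 h and 8 between the times of rosiglitazone. In such a fit the single library left in a group is assumed to vary like the other groups.

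A domain on chromosome 8 of width rank 33 (14906 bp) was shorter with GW3965 than with rosiglitazone. Its H3K27ac peaks covered 14823 and 14707 bp in DMSO, 6995 and 7191 bp after 24 h of GW3965, 10644 and 8795 bp after 48 h, 14906 bp in both libraries after 24 h of rosiglitazone and 14906 and 14301 bp after 48 h. All 4 GW3965 libraries were below all rosiglitazone libraries. The DMSO values chose the domain and are a description only. The log2 change of GW3965 against rosiglitazone was −1.06 ± 0.090 (SE) at 24 h (limma with Benjamini-Hochberg adjustment, adjusted p = 0.0023) and −0.59 ± 0.090 at 48 h (adjusted p = 0.040). The call at 24 h was lost only with peaks of a score of at least 200 (adjusted p = 0.264), and that at 48 h was lost in 12 of 17 alternatives, including leaving out either DMSO library, any 24 h library or either 48 h library of rosiglitazone (highest adjusted p = 0.144 among these).

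On the same chromosome the domain of rank 265 (8892 bp) was shorter with rosiglitazone than with GW3965. It was covered over 3516 and 8892 bp in DMSO, 4998 and 8699 bp after 24 h of GW3965 and 8673 and 8671 bp after 48 h, but over 0 bp in both libraries after 24 h of rosiglitazone and 3646 and 1626 bp after 48 h. The difference between the drugs at 24 h had an adjusted p of 0.0025 in limma, and the return from 24 to 48 h of rosiglitazone one of 0.014. Both calls were lost with peaks of a score of at least 200 (adjusted p = 0.250 for the first), and the second in 5 of 17 alternatives, among them leaving out either 24 h rosiglitazone library (highest adjusted p = 0.062). No fold is given where a group was at 0.

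Rank 441 was also shorter with rosiglitazone than with GW3965. The domain at chr16:58055320-58062956 was covered over 7637 bp in both 48 h libraries of GW3965 and 4152 and 4034 bp in those of rosiglitazone, with 5807 and 7637 bp in DMSO. The log2 difference was 0.88 ± 0.12 (SE, adjusted p = 0.020 in limma), and the call was lost in 5 of 17 alternatives, among them leaving out GW3965 48 h replicate 2 or either rosiglitazone 48 h library (highest adjusted p = 0.131).

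The largest changes that were not called each had 1 library at 0. The domain of rank 225 on chromosome 8 went from 3139 and 0 bp after 24 h of GW3965 to 9079 and 9362 bp after 48 h (adjusted p = 1). Rank 214 at chr11:44582025-44591558 went from 9182 and 9463 bp to 6983 and 0 bp (adjusted p = 1). Rank 289 on chromosome 8 measured 6238 and 8556 bp after 24 h of rosiglitazone and 0 and 5367 bp after 48 h (adjusted p = 1).

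No domain was called for its number of peaks between drugs or times in the fit of all 10 libraries. The 2 DMSO libraries that chose the domains were in that fit and share in its estimate of the spread. Leaving out either of them gave calls in each of these comparisons, with the DMSO library left assumed to vary like the other groups. Of the 500 domains 405 could be tested, having 2 or more peaks in some library, and limma called 0 of them and 0 of all 4718 sites tested, so percent called was 0. At an unadjusted p under 0.05 there were 5 and 19 domains for GW3965 against rosiglitazone at 24 and 48 h, and 3 and 10 for 48 against 24 h of GW3965 and of rosiglitazone, or 1.23%, 4.69%, 0.741% and 2.47% of those tested, against 2.76%, 5.17%, 2.92% and 2.80% of all sites tested. Leaving out single libraries gave calls, with 31 and 30 domains at most, for the drugs at 48 h and the times of rosiglitazone, both without rosiglitazone 48 h replicate 1, and with 17 and 16 at most, for the drugs at 24 h and the times of GW3965, both without GW3965 24 h replicate 2. The largest step was 3 peaks. The domain of rank 7 at chr19:39137669-39159206 had 2 peaks in both libraries after 24 h of rosiglitazone and 3 and 7 after 48 h (adjusted p = 0.717 in limma), but it also had 5 and 2 in DMSO. Rank 29 at chr4:75544690-75559893 had 6 and 3 peaks after 48 h of GW3965 and 1 and 2 after 48 h of rosiglitazone (adjusted p = 0.512).

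JunD occupied most of the domains in DMSO-treated cells. A peak overlapped 351 of 500 domains in replicate 1 and 345 in replicate 2, against 21.2% and 21.6% of the other sites. Per length, 0.104 and 0.109 JunD peaks per kb had their midpoint in the domains, 0.103 and 0.103 in the next 500 sites by width and 0.0788 and 0.0823 in all other sites. The covered share separated the sets further, with 31.4% and 26.4% in the domains, 22.9% and 19.5% in the next 500 and 12.2% and 10.8% elsewhere. JunD peaks were wider inside the domains, with medians of 2114.5 and 1759.5 bp against 1276.5 and 1090 bp in other sites. With 2 libraries per group an exact paired permutation test over libraries cannot go below p = 0.5, so these densities are compared by their values alone.

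Among the domains, the wider ones held more JunD per length. In ranks 1 to 100 JunD reached 0.115 and 0.118 peaks per kb and covered 39.3% and 33.2%, and in ranks 401 to 500 it reached 0.0962 and 0.100 peaks per kb and covered 26.1% and 22.3%. The domain with the most JunD sites, of rank 100 at chr1:156089050-156100919, had 5 sites, and JunD covered 11323 and 9475 of its 11870 bp. At rank 7 on chromosome 19, 4 sites covered 20031 and 19390 of 21538 bp.

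LXRB peaks were also more frequent per kb in the domains than in other sites. At 2 h of GW3965 the density was 0.115 and 0.0704 peaks per kb, against 0.0823 and 0.0495 in other sites. At 48 h it was 0.147 and 0.174 against 0.111 and 0.161. A domain held an LXRB peak in 373 and 272 cases at 2 h and in 420 and 456 cases at 48 h. LXRB thus reached 84.0% and 91.2% of the domains at 48 h, against 28.3% and 40.7% of the other sites, which are shorter.

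For tagged LXRA the contrast between sets varied between libraries. LXRA reached 0.240 and 0.181 peaks per kb at 2 h against 0.235 and 0.151 in other sites, and 0.169 and 0.213 at 48 h against 0.154 and 0.233. In LXRA 48 h replicate 2 the domains were therefore below the other sites, the only 1 of 12 receptor libraries where they were. PPARG reached 0.204 and 0.143 peaks per kb after 2 h of rosiglitazone against 0.161 and 0.107 in other sites, and 0.134 and 0.0825 after 48 h against 0.107 and 0.0624.

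Against the next 500 sites by width the receptor densities were hardly separated. The domains had the higher number of peaks per kb in 8 of 12 receptor libraries, with group means of 0.0928 ± 0.0317 (SD, n = 2) against 0.0899 ± 0.0295 for LXRB at 2 h, 0.160 ± 0.0189 against 0.165 ± 0.0297 for LXRB at 48 h and 0.174 ± 0.0429 against 0.167 ± 0.0426 for PPARG at 2 h. These differences were smaller than the SD between libraries, but both sets were measured in the same libraries, so that SD is not their spread. Within libraries, LXRB at 2 h had 0.115 against 0.111 and 0.0704 against 0.0691. PPARG at 2 h had 0.204 against 0.198 and 0.143 against 0.137. LXRB at 48 h was mixed, with 0.147 against 0.144 and 0.174 against 0.186. The covered share was higher in the domains in all 12 libraries, for example 23.5% and 28.8% against 19.7% and 26.2% for LXRB at 48 h. LXRB peaks of 48 h had a median width of 1256 and 1280 bp in the domains and 1003 and 1019 bp in other sites.

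RNAP2 showed the opposite pattern in number and the same in length. In DMSO, 495 and 494 domains held an RNAP2 peak, and 0.177 and 0.208 peaks per kb lay in the domains, against 0.217 and 0.245 in the next 500 and 0.297 and 0.330 in all other sites. The domains had fewer RNAP2 peaks per kb than the other sites in all 10 RNAP2 libraries. Yet those peaks covered 64.5% and 63.0% of the domains and 51.7% and 50.4% of the other sites, since they were wider, with medians of 2545 and 2020 bp against 1515 and 1298 bp. The covered share was higher in the domains in all 10 libraries. From ranks 401 to 500 to ranks 1 to 100 it went from 60.6% and 59.5% to 70.6% and 67.8%. The widest domain, on chromosome 17, had the longest RNAP2 cover in DMSO, with 48109 and 51001 of 54087 bp.

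**Figure D3:**
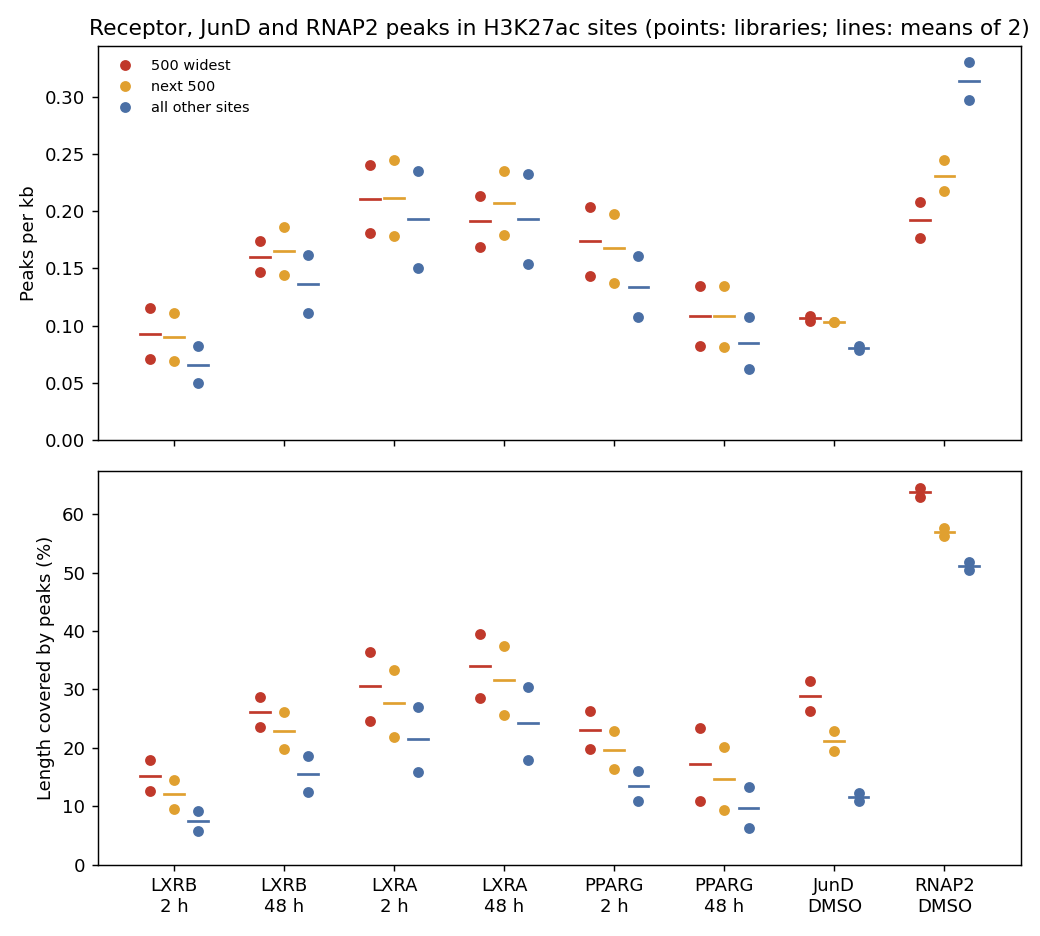
Peaks per kb (upper panel) and share of length covered by peaks in percent (lower panel) for each receptor, JunD and RNAP2 group, in the 500 widest domains (red), the next 500 sites (orange) and all other sites (blue), with 1 point per library and a line at the mean of 2. JunD in red sits at 0.104 and 0.109 peaks per kb above blue at 0.0788 and 0.0823, RNAP2 in red sits below blue, and in the lower panel the red mean is above the blue mean in every group.

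Sites found in both replicates were counted per domain. JunD had 444 such sites in the domains, LXRB 333 at 2 h and 679 at 48 h, LXRA 854 and 807, and PPARG 701 at 2 h and 387 at 48 h. Of all LXRB sites in the genome, the domains held 8.58% at 2 h and 7.37% at 48 h, and they held 4.96% of JunD and 4.92% of PPARG 2 h sites. The other 19392 H3K27ac sites held 59.9% and 56.4% of the LXRB sites, 38.9% of JunD sites and 37.3% of PPARG 2 h sites. A larger share of the JunD and PPARG sites thus had its midpoint outside the H3K27ac sites of DMSO. Whether H3K27ac peaks of drug-treated cells or of a single DMSO replicate lay there was not analysed here. The domain with the most LXRB 48 h sites, rank 41 at chr3:193847231-193861704, held 5. The most PPARG 2 h sites in a domain were also 5, at rank 4 (chr11:61721519-61745384) and, tied with it, at ranks 21 and 90 on chromosome 17. Rank 4 also had the most H3K27ac peaks in DMSO, 5 and 3, followed by rank 7 with 5 and 2.

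JunD and the receptors often met in the same domain. Sites of JunD, of LXRB at 48 h and of PPARG at 2 h were all present in 273 domains (54.6%), and none of them in 44 (8.80%). In the next 500 sites, 174 (34.8%) held all of them and 88 (17.6%) none. Those sites are shorter, with a median of 6507 bp against 9062 bp. Per kb the domains and the next 500 held similar numbers of sites, with 0.0868 against 0.0846 for JunD. For LXRB at 48 h both sets had 0.133, and for PPARG at 2 h they had 0.137 against 0.131. The part of length in these shares was not tested. Of the LXRB 2 h sites in the domains 265 of 333 (79.6%) overlapped a JunD site, and 443 of 679 (65.2%) of the LXRB 48 h sites did. In the other sites these shares were 58.2% and 48.1%. Of the PPARG sites in the domains 60.5% overlapped JunD at 2 h and 70.0% at 48 h, against 43.7% and 51.1% in the other sites. JunD peaks in the domains were wider, as given above, and the part of peak width in these overlaps was not tested.

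Domains without JunD held fewer receptor peaks for their length. The 323 domains with a JunD site had 0.172 and 0.195 LXRB peaks per kb at 48 h, and the 177 without one had 0.0931 and 0.128. PPARG at 2 h had 0.226 and 0.167 peaks per kb with JunD and 0.158 and 0.0938 without, while LXRA at 2 h differed less, with 0.247 and 0.196 against 0.225 and 0.150. RNAP2 covered 70.5% and 68.3% of the domains with JunD and 52.1% and 52.0% of those without. The domains with JunD were also wider, with a median of 9361 bp against 8710 bp.

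Within the domains, midpoints of peaks lay away from the ends. A peak that lies wholly within a domain cannot have its midpoint at an end, so fewer midpoints there follow in part from peak width. The size of that part was not tested, and the even spread below is a reference value only. If midpoints were spread evenly, 50% would fall in the central 50% of a domain and 20% in its outer 20% (both ends together). For JunD 61.5% and 60.3% fell in the central 50% and 6.79% and 7.37% in the outer 20%. LXRB at 48 h had 61.0% and 58.4% in the central 50%, PPARG at 2 h 57.8% and 60.3%, and RNAP2 in DMSO 57.6% and 55.1%. With the width of a domain divided into 10 equal bins, the shares of the 8 inner bins in these libraries ranged from 8.46% to 14.3%.

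**Figure D4:**
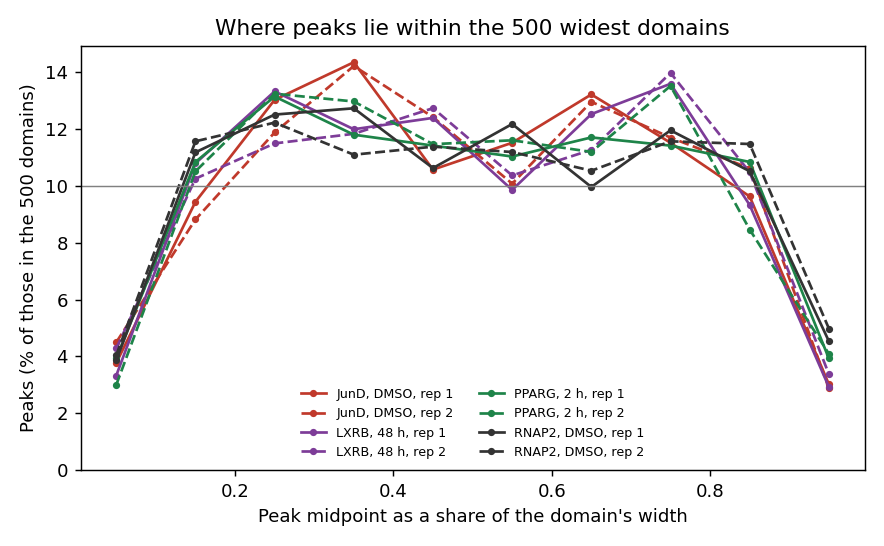
Share in percent of the peaks in the 500 widest domains whose midpoint falls in each of 10 equal bins of a domain's width, for JunD, LXRB at 48 h, PPARG at 2 h and RNAP2 in DMSO, with both replicates drawn (solid and dashed) and a grey line at the 10% of an even spread. All lines drop below 10% in the first and last bin, where JunD has 6.79% and 7.37% in both bins together.

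Between 2 and 48 h of GW3965, LXRB peaks came to cover more of the length of some domains. Of 496 domains tested, those with a receptor peak in at least 2 of 12 libraries, 36 rose (7.26%, against 5.68% of all 12906 sites tested) and 0 fell. The median log2 change was 0.92 in the 496 domains and 0.13 in all sites tested, but 0.35 and 0 without LXRB 2 h replicate 2 and 0.61 and 0 without LXRB 48 h replicate 2. The LXRB libraries themselves held 7583 and 4555 peaks at 2 h and 11100 and 14788 at 48 h, and their part in the change was not tested. Of the 36 domains, 24 had no LXRB peak in either 2 h library, and the other 12 rose by 0.91 to 1.89 on the log2 scale (median 1.34). A JunD site lay in 23 of the 36 (63.9%), close to the 64.6% of all domains. The count was 83 without LXRB 2 h replicate 1 and 61 without either PPARG 48 h library, and 22 of the 36 kept the call in every alternative other than the score minimum of 200.

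The domains that led this list had no LXRB at 2 h. At chr11:67118238-67127015 (rank 273), LXRB covered 0 bp in both 2 h libraries and 4450 and 7130 bp at 48 h (adjusted p = 0.00013 in limma). A domain of rank 457 on chromosome 8 went from 0 bp in both to 3352 and 4855 bp (adjusted p = 0.0011). Among domains with LXRB at both times, rank 59 at chr1:201975853-201989230 went from 2749 and 2448 bp to 8651 and 10415 bp, a log2 change of 1.83 ± 0.18 (SE, adjusted p = 0.00038 in limma). This domain was named after its values were seen. In the other direction, rank 130 at chr6:12286205-12297377 went from 839 and 1341 bp to 0 bp in both, which missed the threshold (adjusted p = 0.064), though it passed without either PPARG 2 h library (log2 change −3.54 in both).

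Tagged LXRA changed in few domains and in both directions. Of 496 domains 7 were called (1.41%, against 6.02% of all sites tested), 4 higher and 3 lower at 48 h. Of these 7, 3 had passed the filter on receptor peaks only through the LXRA group where they were high, so for them values are given without a p. The 1.41% counts them, and the 6.02% was not cleared of such sites, so nothing is read from the 2 shares. The 3 domains were rank 131 at chr1:19273203-19284348 with 0 bp in both 2 h libraries and 757 and 1932 bp at 48 h, rank 265 on chromosome 8 with 1193 and 994 bp and then 0 bp in both, and rank 480 at chr9:27376840-27384278 with 1329 and 760 bp and then 0 bp in both. Ranks 131 and 265 had no peak in any of the other 10 receptor libraries, and rank 265 is the domain that had no H3K27ac peak after 24 h of rosiglitazone. Among the other 4, rank 438 on chromosome 8 went from 0 bp to 655 and 890 bp (adjusted p = 0.00016 in limma), a call lost with peaks of a score of at least 200. Without LXRA 2 h replicate 1 the number of called domains was 21, and without either PPARG 48 h library it was 11.

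Rosiglitazone gave the reverse course for PPARG. Between 2 and 48 h, 12 of 496 domains lost PPARG length (2.42%, against 2.3% of all sites tested) and 0 gained. All 12 had PPARG in both 2 h libraries and none in either 48 h library. At rank 435, chr2:219756046-219763715, PPARG covered 3696 and 1862 bp at 2 h (adjusted p = 0.00039 in limma), and at rank 200, chr11:46292054-46301869, it covered 1966 and 2257 bp (adjusted p = 0.00040). The largest gain, at rank 490, chr12:70226240-70233634, was 1474 bp in 1 of 2 libraries at 48 h (adjusted p = 1). The PPARG libraries held 24039 and 15804 peaks at 2 h and 15378 and 8933 at 48 h. The median log2 change was −0.53 in the 496 domains and 0 in all sites tested. In the domains it was −0.16 without PPARG 2 h replicate 1 and −0.80 without PPARG 2 h replicate 2. It was −1.16 without PPARG 48 h replicate 1 and 0 without PPARG 48 h replicate 2.

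Some domains carried both courses. At rank 303, chr1:8932799-8941315, PPARG covered 2580 and 1322 bp at 2 h and 0 bp at 48 h, while LXRB covered 0 bp at 2 h and 2874 and 2773 bp at 48 h. Its PPARG and LXRB calls were lost in 2 and 1 of 18 alternatives. At rank 216, chr1:1364786-1374308, PPARG went from 1560 and 1625 bp to 0 bp and LXRB from 0 bp to 990 and 1323 bp (adjusted p = 0.039 and 0.031 in limma). These calls were lost in 12 and 9 of 18 alternatives, among them the replicate block and leaving out any of the libraries of LXRB or of PPARG 2 h. At rank 444, chr15:40394551-40402172, PPARG went from 881 and 894 bp to 0 bp and LXRB from 931 and 952 bp to 2042 and 3255 bp (adjusted p = 0.027), and the LXRB call was lost in 6 of 18 alternatives, among them leaving out either LXRB 2 h library or LXRB 48 h replicate 2 (highest adjusted p = 0.130). These 3 domains were named after their values were seen, and the receptors were profiled with different ligands.

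RNAP2 cover of the domains varied between libraries of a group as well as between groups. The covered share was 64.5% and 63.0% in DMSO, 58.6% and 53.7% after 24 h and 56.2% and 54.0% after 48 h of GW3965, and 58.7% and 70.3% after 24 h and 56.1% and 63.3% after 48 h of rosiglitazone. All 4 GW3965 libraries were below both DMSO libraries, while of the rosiglitazone libraries 2 were below both, 1 was between them and 1 was above. Rosiglitazone 24 h replicate 2 stood apart, with 0.110 RNAP2 peaks per kb in the domains against 0.169 to 0.219 in the other 9 libraries and with a peak of 83983 bp. Leaving it out changed the number of domains called for rosiglitazone at 24 h from 1 to 3.

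With GW3965 the median RNAP2 change was below 0 in the domains and in all sites tested. The median log2 change against DMSO was −0.15 after 24 h in the domains and −0.12 in all 17511 sites tested, and −0.18 and −0.27 after 48 h. With rosiglitazone the medians were 0.019 and 0.031 after 24 h, and after 48 h they were −0.072 and −0.15. Single libraries moved these medians. Without GW3965 24 h replicate 2 those of GW3965 at 24 h were −0.037 and 0. The domains' median for rosiglitazone at 24 h was −0.084 without its replicate 2, −0.0057 without DMSO replicate 2, 0.029 without DMSO replicate 1 and 0.16 without its replicate 1, and at 48 h it was 0.017 without its replicate 1, −0.15 without its replicate 2 and −0.043 without DMSO replicate 1. Centring every library on its own median moved the medians over all sites to −0.068, −0.0082, −0.12 and −0.066, and the domains' medians to −0.098, 0.080, −0.14 and 0.013, so their direction turned at 48 h of both drugs and at 24 h of rosiglitazone.

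Few single domains passed the test for RNAP2 against DMSO. Of 497 tested, 2 fell after 24 h of GW3965 (0.402%, against 1.93% of all sites that fell), 4 after 48 h (0.805%, against 2.21%), 1 after 24 h of rosiglitazone (0.201%, against 1.22%) and 2 after 48 h (0.402%, against 1.26%). None of these domains rose in limma, where 1, 3, 19 and 7 had an unadjusted p under 0.05 and a higher value. In either direction 6.24%, 13.9%, 7.24% and 7.65% of the domains had an unadjusted p under 0.05, against 6.76%, 12.7%, 6.21% and 5.68% of all sites tested. The counts moved with single libraries, to 20 for GW3965 at 24 h without its replicate 2 and to 44 for rosiglitazone at 24 h without its replicate 1.

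A pair of domains lost RNAP2 length with GW3965 at both times. At rank 248, chr15:63639615-63648693, RNAP2 covered 7317 and 7585 bp in DMSO, 2596 and 2972 bp after 24 h of GW3965 and 2877 and 3140 bp after 48 h, and 7120 and 8214 bp and 5607 and 6404 bp with rosiglitazone. All 4 GW3965 libraries were below all 6 others, with log2 changes against DMSO of −1.39 ± 0.11 (SE, adjusted p = 0.0023 in limma) and −1.28 ± 0.11 (adjusted p = 0.0021). At rank 285, chr1:12652215-12660909, it covered 7375 and 8171 bp in DMSO, 3028 and 3427 bp after 24 h and 3275 and 2874 bp after 48 h of GW3965, and 7362 to 8695 bp in the 4 rosiglitazone libraries. The log2 changes were −1.24 ± 0.12 (adjusted p = 0.0041) and −1.31 ± 0.12 (adjusted p = 0.0024). The calls for rank 248 were lost only with the score minimum of 200 and those for rank 285 only with centring (adjusted p = 0.074 and 0.100), and no single library decided either.

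At 48 h of GW3965, 2 more domains fell. At rank 352, chr12:12866685-12874892, RNAP2 covered 7651 and 7649 bp in DMSO and 3169 and 4168 bp, a log2 change of −1.05 ± 0.18 (adjusted p = 0.036 in limma). At rank 479, chr6:1321291-1328729, it covered 3825 and 3410 bp in DMSO and 2182 and 1576 bp (log2 change −0.92 ± 0.17, adjusted p = 0.046). These calls were lost in 9 and 15 of 17 alternatives, among them leaving out either DMSO library or either GW3965 24 h library (highest adjusted p = 0.255 and 0.355).

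With rosiglitazone RNAP2 disappeared from a domain where it was small to begin with. At rank 359, chr14:100606775-100614954, it covered 1590 and 2056 bp in DMSO, 3011 and 1374 bp after 24 h and 2568 and 2492 bp after 48 h of GW3965, and 0 bp in all 4 rosiglitazone libraries (adjusted p = 0.011 and 0.012 against DMSO in limma). At rank 223, chr1:3369304-3378676, it covered 2351 and 3982 bp in DMSO, 886 and 2765 bp after 24 h of rosiglitazone and 0 bp in both libraries after 48 h (adjusted p = 0.031). The calls for rank 359 were lost without either DMSO library (highest adjusted p = 0.094 at 24 h and 0.098 at 48 h), and at 48 h also without either GW3965 48 h library. That for rank 223 was lost in 11 of 17 alternatives. The largest increases were not called. They were at rank 139 on chromosome 8, with 0 and 3443 bp in DMSO and 3482 and 3434 bp after 24 h of GW3965, 3345 and 3366 bp after 48 h and 7697 and 5820 bp after 48 h of rosiglitazone, and at rank 101 on the same chromosome, with 0 bp in both DMSO libraries and 1620 and 0 bp after 24 h of rosiglitazone (adjusted p at least 0.663).

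The drugs were also compared directly for RNAP2, a comparison added after seeing these domains. At 24 h 6 of 497 domains differed (1.21%, against 1.68% of all sites tested), 1 higher and 5 lower with GW3965, and at 48 h 7 differed (1.41%, against 2.15%), 2 higher and 5 lower. At an unadjusted p under 0.05 there were 14.5% and 13.5% of the domains, against 8.06% and 9.31% of all sites. Ranks 248, 285, 359 and 87 were called at both times. At rank 87, chr2:173296830-173309130, RNAP2 covered 7873 and 6720 bp in DMSO, 4055 and 5858 bp and then 4768 and 3868 bp with GW3965, but 12301 bp in both 24 h libraries and 12092 and 12001 bp in the 48 h libraries of rosiglitazone. Its log2 difference was −1.32 ± 0.18 (SE, adjusted p = 0.025 in limma) at 24 h and −1.47 ± 0.18 (adjusted p = 0.013) at 48 h. The groups did not overlap, with DMSO between the drugs.

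RNAP2 was also longest with rosiglitazone at rank 81, chr5:142195469-142208019. It covered 7377 and 4764 bp in DMSO, 4802 and 3261 bp after 24 h and 2028 and 2895 bp after 48 h of GW3965, and 11939, 12551, 10759 and 12551 bp with rosiglitazone. The difference at 48 h was −2.21 ± 0.28 on the log2 scale (SE, adjusted p = 0.014 in limma). The DMSO values overlapped those of GW3965 at 24 h. Without single libraries the adjusted p for rank 87 reached 0.083 at 24 h and 0.092 at 48 h, and that for rank 81 reached 0.082. The call for rank 87 at 24 h was lost without either GW3965 48 h library or rosiglitazone 24 h replicate 2, and at 48 h without GW3965 48 h replicate 2 or rosiglitazone 48 h replicate 2. Centring ended both of its calls. The call for rank 81 was lost without GW3965 48 h replicate 1 or rosiglitazone 48 h replicate 2. The number of domains called reached 57 at 24 h without rosiglitazone 24 h replicate 1 and fell to 2 at 48 h without GW3965 48 h replicate 2.

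**Figure D5:**
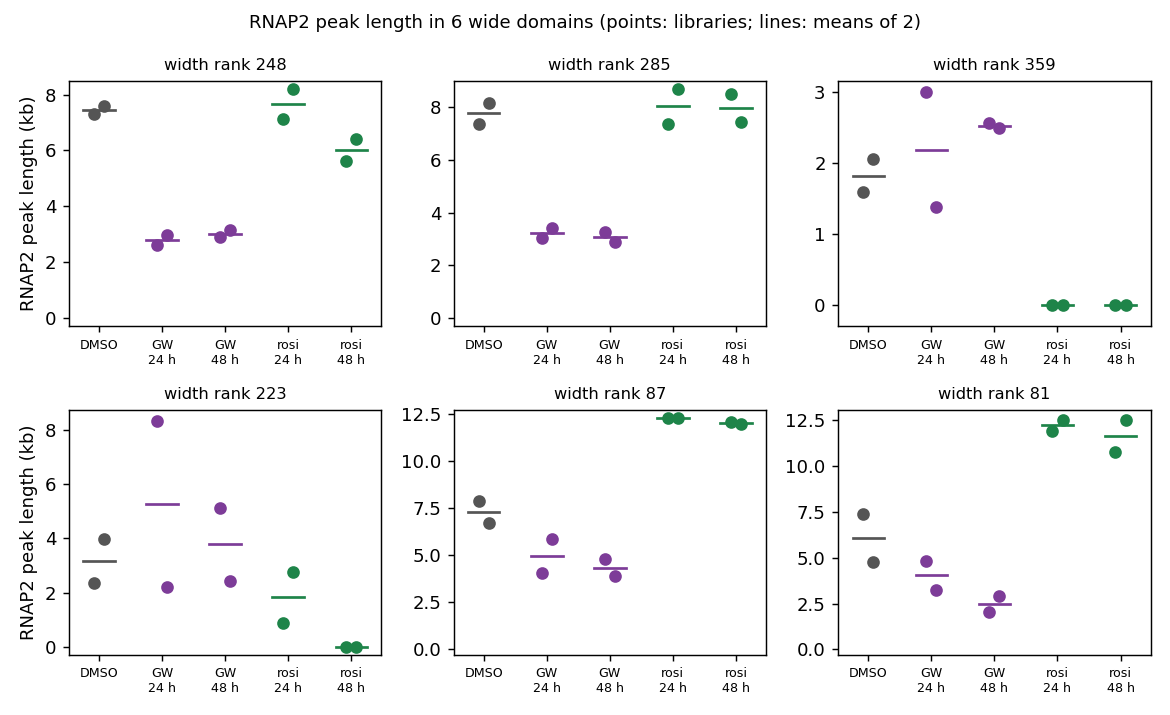
RNAP2 peak length in kb in 6 of the 500 widest domains, by group (grey DMSO, purple GW3965, green rosiglitazone), with 1 point per library and a line at the mean of 2. At ranks 248 and 285 the 4 purple points are below all others, at ranks 81 and 87 the green points are above all others, and at rank 359 the 4 green points are at 0.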

How the data were processed

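ChIP-seq peaks came from 34 peak files (10 of H3K27ac, 10 of RNAP2, 12 of receptors and 2 of JunD). The authors' deposited files give each peak's position on hg19 and a score, which is the −log10 of the peak caller's p multiplied by 10, with a lowest score of 100. The submitters' processing notes name Bowtie and MACS for ChIP-seq and TopHat and Cufflinks for RNA-seq. Input libraries, per the labels, were shared by H3K27ac and RNAP2 and number 1 for DMSO and 2 for each drug, without an hour. Read depth per library is not in the peak files, so the precision of a peak's length is known only from the 2 replicates. Deposited gene counts of the 4 DMSO RNA-seq libraries of 24 h (30834003 to 39955727 counts) were divided by their totals to give CPM for the marker genes only.

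DMSO peaks overlapping by at least 1 bp across the replicates were merged into sites, and the 500 widest were kept. For each site and library the bp covered by peaks and the number of peaks were computed. limma 3.58.1 in R 4.3.3 (empirical Bayes with trend, two-sided, Benjamini-Hochberg adjustment, threshold 0.05) was fitted on log2(covered bp + 100) over all sites, with the libraries of an assay in 1 fit. The pseudocount understates changes of small values. RNAP2 and receptor sites needed a peak in at least 2 libraries. The fits were tested on simulated data. Tables and plots used Python 3.11.15, numpy 2.4.6 and matplotlib 3.10.9. Alternatives were pseudocounts of 10 and 500 bp, centring of libraries, a replicate block, a minimum score of 200, other filters, only the libraries compared, 250 or 1000 domains, and leaving out each library.

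Named domains were the 10 widest, those with the most JunD, LXRB 48 h or PPARG 2 h sites, RNAP2 length or H3K27ac peaks, and for each comparison the largest changes in each direction, up to 2 called or 1 not called. The domains, lists and tests were chosen with earlier results of these data known. RNA of genes in the domains was not analysed here, because no annotation of hg19 was used.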

Additional observations from a re-analysis of the deposited data

Results flagged for a closer look

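The effects of the 2 drugs differed by a direct test at some domains. For H3K27ac, mean covered length with GW3965 minus that with rosiglitazone was −7813 bp at 24 h (7093 against 14906 bp) and −4884 bp at 48 h (9719.5 against 14603.5 bp) in the domain of rank 33 on chromosome 8. In the domain of rank 265 on the same chromosome it was 6848.5 bp at 24 h, with 0 bp for rosiglitazone. At rank 441 on chromosome 16 it was 3544 bp at 48 h (7637 against 4093 bp).

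For RNAP2 the domains with a lower mean with GW3965 at 24 h were rank 87 with a difference of −7344.5 bp (4956.5 against 12301 bp), rank 248 with −4883 bp (2784 against 7667 bp), rank 285 with −4801 bp (3227.5 against 8028.5 bp), rank 172 at chr12:54533671-54543959 with −2886 bp (5380 against 8266 bp) and rank 421 on chromosome 8 with −2843 bp (3459 against 6302 bp). Rank 359 was higher with GW3965 by 2192.5 bp, with 0 bp for rosiglitazone. At 48 h the differences were −9193.5 bp at rank 81 (2461.5 against 11655 bp), −7728.5 bp at rank 87 (4318 against 12046.5 bp), −4884 bp at rank 285 (3074.5 against 7958.5 bp), −2997 bp at rank 248 (3008.5 against 6005.5 bp) and −2259 bp at rank 479 (1879 against 4138 bp). Ranks 223 and 359 were higher with GW3965 by 3781 and 2530 bp, with 0 bp for rosiglitazone. Of these calls, those of rank 172 and rank 421 at 24 h were lost in 13 and 11 of 17 alternatives, among them the replicate block and leaving out any library of DMSO or GW3965. Those of rank 223 and rank 479 at 48 h were lost in 10 and 8 of 17, and those of rank 359 in 5 and 3 of 17, among them leaving out either GW3965 48 h library for ranks 223 and 359 and GW3965 48 h replicate 2 for rank 479. At rank 248 the call at 48 h was lost in 4 of 17, among them leaving out either GW3965 48 h library.

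Among the markers, 1 of 4 DMSO RNA-seq libraries stood apart by Dixon's test for EPCAM (378.3 CPM, against 338.3 to 340.6 CPM in the other 3), and 1 did for PTPRC (0.0252 CPM, against 0 in the others). Chance gives such a result in about 1 of 20 groups, and 14 markers were examined. For PTPRC the other 3 libraries were tied at 0, where any value above 0 stands apart, so that rate does not hold for it.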

How the results depend on the processing

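Counts of domains past the threshold were small and moved with the processing, and the cause was not tested. Of 1368 alternative values, 293 of the counts and summaries and 674 of the values of single domains and of all sites kept their side of the threshold or stayed within the spread. Another 181 of the counts and summaries moved. Of the values of single domains and of all sites, 113 moved, 99 became weaker, 6 became stronger and 2 changed sign. Medians changed sign with single libraries, for H3K27ac as given below and for RNAP2 with rosiglitazone as given above, and LXRB medians kept theirs. Of single domains 2 changed sign, and both were uncalled RNAP2 changes of rank 139 on chromosome 8, which came to −2.57 for GW3965 at 24 h with peaks of a score of at least 200 and to −0.036 for GW3965 at 48 h without DMSO replicate 1.

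For H3K27ac, GW3965 minus rosiglitazone at 24 h (2 domains) gave 5 with centring, 5 with the higher score and 9 with only the 4 libraries compared. At 48 h (2 domains) the higher score gave 1. GW3965 at 48 h minus 24 h (0 domains) gave 2 with the higher score. Rosiglitazone at 48 h minus 24 h (1 domain) gave 0 with a pseudocount of 500 bp, 2 with centring and 0 with only its 4 libraries. Centring moved the median log2 change of rosiglitazone at 24 h against DMSO to −0.063.

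For RNAP2 against DMSO, the count for GW3965 at 24 h (2) became 1 with centring, 8 with the higher score and 11 with only the 4 libraries, and that at 48 h (4) became 8 with the higher score, 2 without a filter and 53 with only the 4 libraries. For rosiglitazone at 24 h (1) the same settings gave 3 with centring, 5 with the higher score and 0 with the 4 libraries, and at 48 h (2) the counts were 1 with a pseudocount of 500 bp, 4 with the higher score, 1 without a filter and 0 with the 4 libraries. Between the drugs at 24 h (6) they were 3 with centring, 10 with the higher score and 0 with the 4 libraries, and at 48 h (7) the 4 libraries gave 12. LXRA at 48 h minus 2 h (7) gave 11 with centring, 19 with the higher score and 4 without a filter, and PPARG (12) gave 6 with a pseudocount of 500 bp. Over all sites tested, the 4 libraries alone gave 651 H3K27ac sites between the drugs at 24 h in place of 296, 2305 RNAP2 sites for GW3965 at 48 h in place of 492, and 0 RNAP2 sites for rosiglitazone at 24 and 48 h in place of 262 and 258.

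The labels do not say whether libraries with the same replicate number belong together, and the main fits did not pair them. Correlations of deviations between groups ranged from −0.228 to 0.342 for H3K27ac, −0.302 to 0.445 for RNAP2 and −0.238 to 0.114 for receptors, which does not decide it. With the replicate number as a block, H3K27ac between the drugs at 48 h gave 0 domains, RNAP2 for rosiglitazone at 48 h 1, and RNAP2 between the drugs at 24 h 2. The block moved no other count of domains by over 1.5 times. Over all sites tested, it gave 78 RNAP2 sites between the drugs at 24 h in place of 295. At 48 h it gave 176 in place of 376.

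Leaving out each library in turn, with a lone library assumed to vary like the other groups, gave 2 to 13 H3K27ac domains between the drugs at 24 h, 1 to 11 at 48 h, 0 to 11 for GW3965 at 48 h minus 24 h and 1 to 8 for rosiglitazone. Median log2 changes against DMSO ranged from −0.042 to 0.099 for GW3965 at 24 h, −0.046 to 0.090 at 48 h, and −0.085 to 0.057 for rosiglitazone at 48 h, with the lowest without DMSO replicate 1 and the highest without DMSO replicate 2. RNAP2 counts ranged from 2 to 20 and 2 to 7 for GW3965 at 24 and 48 h, 0 to 44 and 0 to 7 for rosiglitazone, and 3 to 57 and 2 to 14 between the drugs. The change of rank 139 for GW3965 at 48 h reached 5.11. Receptor counts at 48 h minus 2 h ranged from 27 to 83 for LXRB, 7 to 21 for LXRA and 9 to 90 for PPARG, the last without PPARG 48 h replicate 1. The number of H3K27ac peaks, with 0 domains called in all libraries, gave 1 to 17, 4 to 31, 1 to 16 and 1 to 30 domains in the 4 comparisons between drugs or times. No such counts are given against DMSO, whose peaks chose the domains.

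With a score of at least 200, peaks per kb fell to 0.150 and 0.137 for LXRA at 2 and 48 h, 0.0440 and 0.0947 for LXRB, 0.124 for PPARG at 2 h, 0.0672 for JunD and 0.160 for RNAP2 in DMSO. JunD without chromosome 8 had 0.110. Coverage by GW3965 at 24 h was 93.6% without chromosome 8, 92.7% of the 250 widest, 91.3% of the 1000 widest, 92.5% with peaks under 500 bp apart joined, 89.6% with the higher score, and 95.3% and 92.5% in domains chosen from DMSO replicate 1 or 2 alone. For rosiglitazone at 24 h it was 94.1% without chromosome 8, 92.1% of the 1000 widest, 90.9% with the higher score and 97.5% from replicate 1 alone, where GW3965 and rosiglitazone at 48 h had 97.0% and 96.1%. In domains chosen from GW3965 at 24 h or rosiglitazone at 24 or 48 h, DMSO peaks covered 82.2%, 79.9% and 79.9%. Peaks per domain for GW3965 at 48 h were 1.55 in the 250 widest, 1.32 in the 1000 widest, 1.07 with joining, 1.30 with the higher score, and 1.14 and 1.32 from DMSO replicate 1 or 2 alone. For rosiglitazone at 24 h they were 1.03 with joining, 1.16 with the higher score and 1.03 from replicate 1 alone, and at 48 h 1.10 with joining.

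The comparisons between the drugs for RNAP2 and the settings without chromosome 8 were chosen after seeing the data. The comparisons on RNA of genes at the domains were not run, since no annotation of hg19 was used. Read depth is unknown for the peak files, so 0 bp covered says only that no peak was called there, and covered length depends on how many peaks were called in a library.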
